A study of Mus musculus with 9 samples.

Results

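The circRNAs of mouse liver after ischemia-reperfusion (I/R) were compared with those of normal (N) liver on 6 of the 9 arrays of the series, 3 for each group. The I/R livers had 1 h of partial ischemia and 4 h of reperfusion, and the N livers came from mice that had a laparotomy with no block of the blood supply. The mice of both groups were male C57BL/6 animals, 8 weeks old, and no genetic change or other treatment is given for them. The livers put on arrays were drawn at random from each group, so the replicates are separate livers. Total RNA was treated with RNase R, an exonuclease that digests linear RNA, so the arrays hold RNA enriched for circles, labelled with Cy3 and hybridized on 1-colour arrays. Included were the circRNA probes flagged by the scanner software as well above background on all 6 arrays, which were 5273 of 14236 probes (37%). The files identify a probe by its ASCRP number alone, so the circRNAs are given by that number, with no host gene and no sequence.

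CircRNAs are closed loops that form when the spliceosome joins the end of an exon to the start of the same or an upstream exon of a transcript. They have no free ends, which protects them from exonucleases, and many are known to outlive the linear RNA of their host gene. Hepatic I/R is the injury that follows when blood flow to the liver is stopped and restored, as in resection and transplantation, and it combines the loss of oxygen with an inflammatory response on reperfusion. In tissue RNA of this kind, fewer cells of a type and less RNA per cell cannot be told apart.

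The 3 I/R arrays differed from each other before any comparison with N. I/R 3 had 13207 circRNA probes above background, more than any N liver (12097 to 12661), whereas I/R 1 had 8088 and I/R 2 had 5489. The median processed intensity followed the same order, with 57.7 for I/R 3, 26.5 to 37.9 for the N livers, 9.06 for I/R 1 and 7.94 for I/R 2. Their local background had medians of 27 (I/R 1) and 33.5 (I/R 2), against 17 for the remaining 4 arrays. I/R 1 and I/R 2 were each scanned alone, while the N arrays and I/R 3 share a scan. Their spots were also read with a grid file that only these 2 arrays used, the other 7 arrays of the series sharing another. For I/R 1 and I/R 2 the scan and the grid file cannot be told apart from the liver.

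The dim I/R arrays decided which circRNAs could be compared. I/R 2 alone removed 2684 probes that were well above background on the other 5 arrays, and I/R 1 alone removed 150. Of the 11892 probes well above background on all 3 N arrays, 6619 were left out. Of these, 6466 were not well above background on I/R 2, 3925 were not on I/R 1, and 91 were not on I/R 3. When all 14236 probes were ranked by their mean signal in N and divided into quintiles, the 5273 probes held 92.2% of the brightest quintile, 66.3% of the next, 23.9% of the middle quintile, 2.74% of the next and 1 probe of the dimmest. The comparison is therefore one of the brighter circRNA probes of normal liver.

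**Figure D1:**
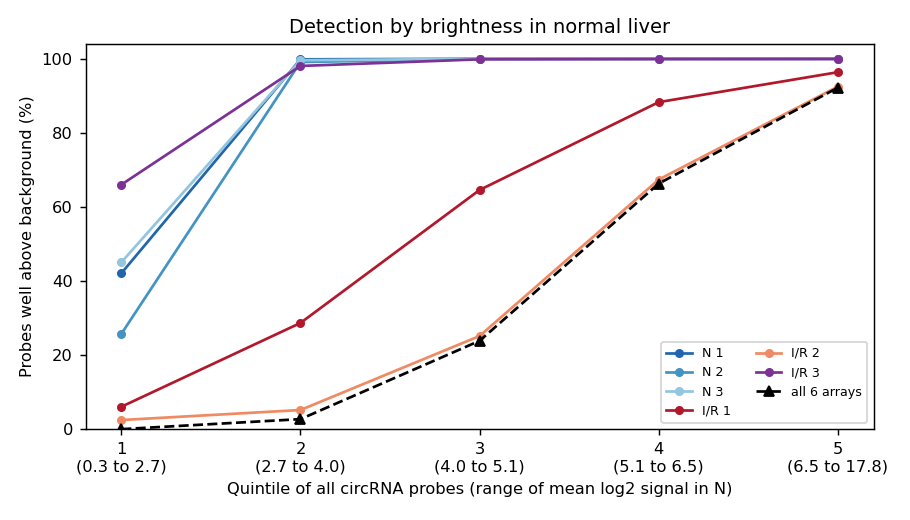
Percent of probes well above background on each array (coloured lines) and on all 6 arrays (black triangles) for each quintile of the 14236 circRNA probes, ordered by mean log2 signal in N. I/R 1 and I/R 2 lie below the other arrays in every quintile, and the line for all 6 arrays follows I/R 2.

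Of the 5273 probes, 914 (17.3%) differed by 2-fold or more between the groups with a limma p-value below 0.05 before adjustment, which is the threshold named in the study's methods. Of these, 524 were up-regulated in the I/R group (9.94%) and 390 were down-regulated (7.4%). The median fold was 2.47 among the up-regulated and 2.98 among the down-regulated probes. The balance of the 2 directions differed between bright and dim probes. At the dim end the filter fixed part of this balance. Of the up-regulated probes, 186 had an N mean below 5.07, the dimmest included value on I/R 2. They could be included only by lying above it there. With scaling to the 75th percentile, 663 were up-regulated and 305 down-regulated, and with normexp background correction 141 and 222. When the filter asked only for a signal well above background on the 3 N arrays, 11892 probes were tested. Of these, 733 were up-regulated and 1272 down-regulated, counts that are not like for like with those over 5273 probes. Without I/R 3, 989 were up-regulated and 473 down-regulated.

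At a Benjamini-Hochberg adjusted p below 0.05 with limma, 54 probes were up-regulated (1.02%) and 89 down-regulated (1.69%) at 2-fold. This count of 143 (2.71%) rested on single arrays. It was 3 without N 1, 1 without N 2, 86 without N 3, 53 without I/R 1, 2 without I/R 2 and 1395 without I/R 3. The values of the I/R arrays did not overlap with those of the N arrays in 1592 probes (30.2%), of which 1017 were higher in I/R (19.3%) and 575 lower (10.9%).

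The 6 largest decreases that passed the adjusted threshold without overlap were between 31.3-fold and 67-fold, and all were in circRNA probes among the brightest of normal liver. The largest was in ASCRP4002727, the 15th brightest probe in N. Its log2 signal was 14.85, 15.10 and 12.52 on N 1, N 2 and N 3, and 6.99, 7.20 and 10.09 on the I/R arrays in the same order of numbers (log2 fold change -6.07 ± 0.94 SE, n = 3 per group, limma adjusted p = 0.0207). N 3 was lower than the other N arrays and I/R 3 was higher than the other I/R arrays, and the groups did not overlap.

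The other large decreases had the same order of arrays. ASCRP4004487 was at 13.01, 13.20 and 9.77 in N and at 5.63, 5.82 and 7.76 in I/R, a log2 difference of -5.59. ASCRP4007513 was at 12.34, 12.59 and 8.83 in N and at 4.28, 5.10 and 7.83 in I/R, a log2 difference of -5.52. ASCRP4000591 was at 12.33, 12.46 and 9.44 in N and at 5.06, 5.58 and 7.43 in I/R, a log2 difference of -5.39. In each of these the gap between N 3 and I/R 3 was the narrowest between any N and any I/R array. ASCRP4010587 was at 12.84, 13.17 and 10.17 in N and at 5.86, 6.64 and 7.98 in I/R, a log2 difference of -5.23. ASCRP4005099 was at 13.94, 14.21 and 12.59 in N and at 7.27, 8.54 and 10.01 in I/R, a log2 difference of -4.97. N 3 was the lowest N array and I/R 1 the lowest and I/R 3 the highest I/R array in these 2 as well. The limma adjusted p of these 5 probes was between 0.0167 and 0.0465.

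The 6 largest increases by the same rule were smaller, and 5 of them were in the dimmest of the 5 brightness classes described further on. ASCRP4007889 was at 3.67, 4.06 and 5.28 on N 1, N 2 and N 3 and at 7.84, 7.89 and 7.96 on the I/R arrays (log2 fold change 3.56 ± 0.44 SE, n = 3 per group, limma adjusted p = 0.0136). Its SD was 0.06 over the I/R arrays and 0.84 over the N arrays, of which N 3 was the highest. ASCRP4002701 was at 5.54, 5.38 and 5.05 in N and at 7.95, 7.93 and 9.61 in I/R, a log2 difference of 3.17 with the highest value on I/R 3. ASCRP4004109 was at 4.53, 4.65 and 5.00 in N and at 8.17, 7.84 and 6.69 in I/R, a log2 difference of 2.84 with the lowest I/R value on I/R 3. None of these 3 overlapped between the groups.

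ASCRP4013748 was at 3.67, 3.70 and 3.38 in N and at 6.31, 6.80 and 5.84 in I/R, a log2 difference of 2.74. ASCRP4005273 was at 3.29, 4.08 and 4.15 in N and at 6.53, 6.76 and 6.32 in I/R, a log2 difference of 2.70. In both, I/R 2 was the highest and I/R 3 the lowest of the I/R arrays, still over 4-fold above the mean of N on I/R 3. The limma adjusted p of these 2 probes was 0.0148 in both, and that of ASCRP4002701 and ASCRP4004109 was 0.0210 and 0.0203. The means in N of ASCRP4007889, ASCRP4004109, ASCRP4013748 and ASCRP4005273, at 4.34, 4.73, 3.58 and 3.84, were below the dimmest included value on I/R 2 (5.07). These 4 could therefore be included only by lying above N on that array, and their p-values are conditional on that. With probes chosen on the N arrays alone their limma adjusted p was between 0.0269 and 0.0420. With no filter at all ASCRP4004109 lost the threshold (limma adjusted p = 0.0531). Among the 6 decreases, ASCRP4004487 and ASCRP4007513 lost it with probes chosen on the N arrays (limma adjusted p = 0.0502 and 0.0784). The nominally largest increase, 3.86 on the log2 scale in ASCRP4006765, rested on I/R 3 alone (13.01, against 9.76, 8.96 and 8.73 in N), because its spots on I/R 1 and I/R 2 carried an outlier flag. With those spots kept, at 7.84 and 9.51, the difference was 0.97 and the limma adjusted p was 0.642. The size of the dim increases depended on the background correction. With normexp the log2 difference was 1.92 in ASCRP4007889, 2.09 in ASCRP4002701, 1.55 in ASCRP4004109, 1.03 in ASCRP4013748 and 1.04 in ASCRP4005273, while the 6 decreases lay between -4.41 and -5.54. Each of the 12 probes kept its direction in every alternative run, and each lost the adjusted threshold without N 1, without N 2 and without I/R 2, where the limma adjusted p was between 0.0935 and 0.197.

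**Figure D2:**
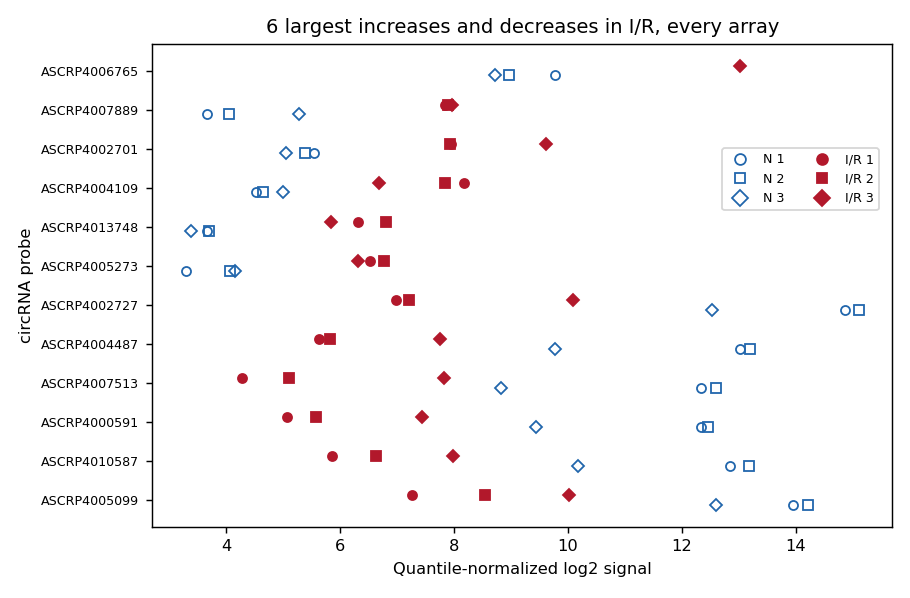
Quantile-normalized log2 signal of the 6 largest increases (upper rows) and the 6 largest decreases (lower rows) on each N array (open blue symbols) and each I/R array (filled red symbols). No probe shows overlap between the groups, N 3 is the lowest N array in all 6 decreases, and ASCRP4006765 has a single I/R value.

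The distribution of the log2 fold change over the 5273 probes had its centre above 0 and its longer tail below. The median was 0.22, the mean 0.13 and the SD 0.87, and 62.6% of the probes lay above 0. The 5th and 95th percentiles were -1.36 and 1.32, close to each other in size, while the 1st and 99th were -2.70 and 1.79. The skewness was -1.27. Differences of at least 2-fold were seen in 616 probes above and 456 below, of at least 4-fold in 28 above and 117 below, and of at least 8-fold in 3 above and 40 below. In this set moderate increases outnumbered moderate decreases, and large decreases outnumbered large increases. The first of these turned with the choice of probes and with the background correction. At 2-fold, 11.7% of the probes lay above and 8.65% below, against 8.02% and 16.4% with probes chosen on the 3 N arrays (median -0.02), 2.83% and 4.55% with normexp, and 4.48% and 6.01% with the raw signal. The filter also kept out probes that fell below the lowest included value on I/R 2, which bounds the decreases counted here.

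The N arrays give the spread to set beside this. The difference of 1 N array from the mean of the other 2 had an SD of 0.41 for N 1, 0.41 for N 2 and 0.58 for N 3. The difference of 1 I/R array from the mean of the 3 N arrays had an SD of 1.08 for I/R 1, 0.98 for I/R 2 and 1.15 for I/R 3. Between pairs of N arrays 2.43% to 7.76% of the probes differed by at least 2-fold, and between an I/R and an N array 28.7% to 43.3% did. These are descriptions over probes, which are not independent replicates.

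The 3 I/R arrays did not share 1 shape. The median difference from the N mean was 0.32 for I/R 1, 0.34 for I/R 2 and -0.08 for I/R 3. On I/R 1, 1150 probes lay at least 2-fold above the N mean and 594 below. On I/R 2 the numbers were 1020 and 459. On I/R 3 they were 1023 above and 1071 below, so an excess of increases was seen on I/R 1 and I/R 2 only. The filter fixed part of that excess. For 687 probes the mean of N was below the dimmest included value on I/R 2 (5.07), so they had to lie above N there. Of these, 653 lay above the N mean on I/R 1 as well. All 3 had a longer lower tail, with a skewness of -1.14, -1.05 and -0.35. Each array was brought to the same distribution over all its spots, so a value gives a probe's place among the spots of its array and a rise of some probes is balanced by a fall of others.

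**Figure D3:**
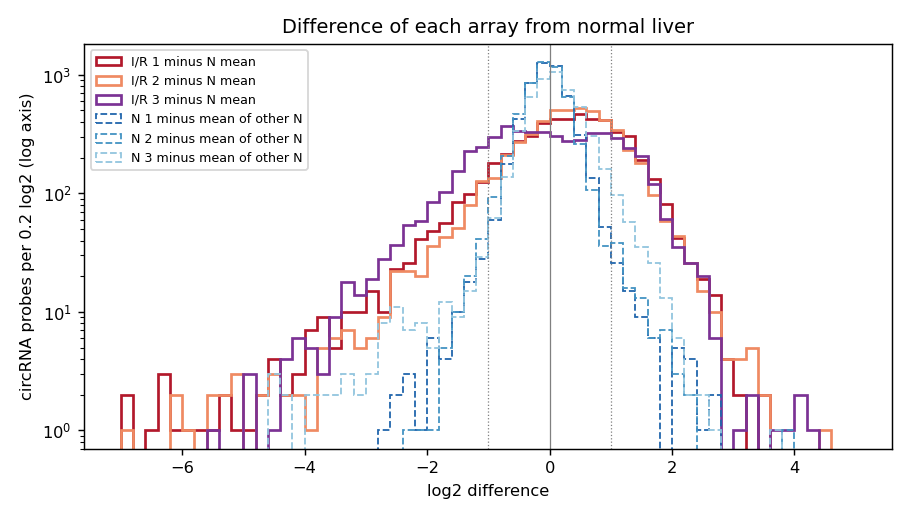
Number of circRNA probes (log axis) per 0.2 of log2 difference, for each I/R array minus the mean of the 3 N arrays (solid lines) and each N array minus the mean of the other 2 (dashed lines). Dotted lines mark 2-fold. The I/R lines are wider than the N lines on both sides, I/R 3 has fewer probes near 0 than I/R 1 and I/R 2, and N 3 has a lower tail that N 1 and N 2 lack.

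Of the 117 decreases of at least 4-fold in the mean, 110 lay at least 2-fold below the N mean on all 3 I/R arrays and 63 at least 4-fold below it on all 3, and 103 did not overlap between the groups. In 1 of them, ASCRP4004507, I/R 3 lay above the N mean. Their median difference from the N mean was -2.96, -2.53 and -2.83 for I/R 1, 2 and 3. All 117 passed the unadjusted threshold and 67 the adjusted one, and 101 of them were in the brightest class. Of the 28 increases of at least 4-fold, 27 passed the unadjusted and 21 the adjusted threshold, with median differences of 2.50, 2.60 and 1.95 on the 3 arrays, and 24 lay at least 2-fold above the N mean on all 3.

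N 3 took part in the lower tail. It lay at least 2-fold below both N 1 and N 2 in 97 of the 5273 probes (1.84%), and these 97 held 51 of the 117 decreases of at least 4-fold (43.6%) and 26 of the 40 of at least 8-fold. With the 97 probes left out the skewness was -0.72 and the SD 0.79. In 89 of the 97 the mean of I/R was below the mean of N. In 38 of the 117 decreases N 3 was the lowest N array and the I/R arrays were in the order I/R 1, I/R 2 and I/R 3 from low to high, as in ASCRP4002727. The part of liver sampling, scan or injury in this order was not tested.

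The probes were divided into 5 classes of 1054 or 1055 by their mean log2 signal in N, from class 1 (2.65 to 5.38) to class 5 (7.99 to 17.75). A probe's brightness also depends on its sequence, so the classes order probes by signal and do not rank the amounts of different circRNAs. The median log2 fold change fell from class to class, at 0.70, 0.29, 0.13, -0.01 and -0.19. The unadjusted threshold was passed upward by 229, 98, 60, 57 and 80 probes from class 1 to class 5 (21.7%, 9.29%, 5.69%, 5.40% and 7.58%) and downward by 0, 2, 52, 113 and 223 (0%, 0.19%, 4.93%, 10.7% and 21.1%). The adjusted threshold was passed upward by 30, 6, 4, 8 and 6 probes and downward by 0, 0, 0, 14 and 75.

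The spread of the fold change also grew with brightness. Its SD was 0.53, 0.56, 0.63, 0.77 and 1.22 from class 1 to class 5, and its skewness went from 0.61 in class 1 through 0.13, -0.20 and -0.38 to -1.12 in class 5. The filter on dim probes bounded the decreases in the dim classes, so it set part of the SD and skewness there. The median SD within the N group was 0.22 to 0.28 and within the I/R group 0.60 to 0.71 over the classes, with the highest of both in class 5. Of the probes of class 5, 142 lay at least 2-fold below the N mean on all 3 I/R arrays and 29 at least 2-fold above. In class 1 the numbers were 0 and 66, the 0 being fixed by the filter on dim probes.

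The gradient over the classes differed in size between the I/R arrays. In class 1 the median difference from the N mean was 0.97 for I/R 1 and 0.94 for I/R 2, but 0.08 for I/R 3. In class 5 it was -0.22, -0.09 and -0.45. Among the included probes the medians of I/R 1 and I/R 2 thus spanned a wider range over the classes than those of I/R 3, whose lower values lay in classes 4 and 5. The N arrays showed no such gradient, with medians of N 3 against the other N arrays between 0.06 and 0.10 in all classes. However, the N arrays also set the classes, and the filter did not bound their values as it did on I/R 1 and I/R 2. They are therefore no control for the part of the gradient that the filter fixed.

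**Figure D4:**
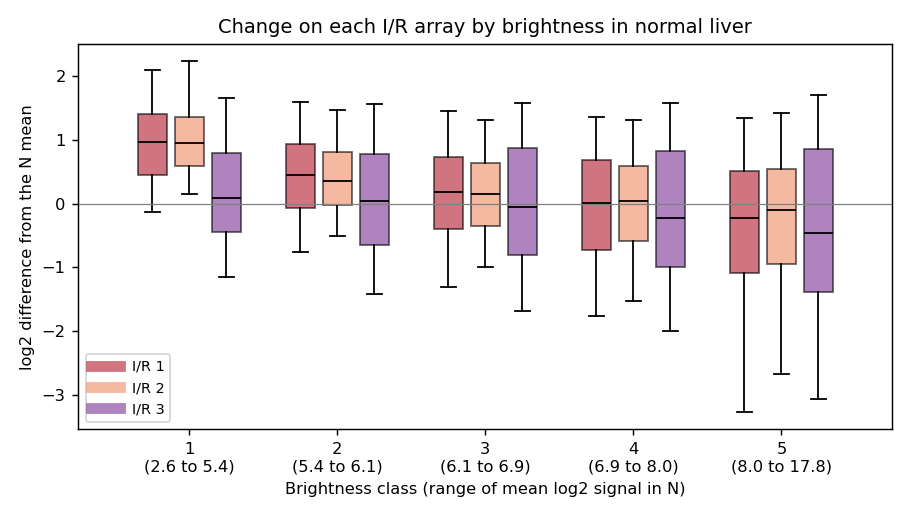
Log2 difference of each I/R array from the mean of the 3 N arrays, by brightness class in N. Boxes span the quartiles with the median as a line, and whiskers reach the 5th and 95th percentiles. In class 1 the boxes of I/R 1 and I/R 2 lie above 0 and that of I/R 3 spans it, and in class 5 the lower whiskers reach beyond 4-fold below the N mean on all 3 arrays.

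The filter on dim probes bounded the values of the dim classes from below. The dimmest of the 5273 probes was at 5.07 on I/R 2 and at 4.05 on I/R 1, against 2.12 on I/R 3 and 2.37 to 2.58 on the N arrays. For 687 probes the mean of N was below 5.07, so they could only be included by lying above it on I/R 2. Of these, 653 lay above the N mean on I/R 1 as well and 186 were called up-regulated, but on I/R 3 only 382 lay above it (55.6%), with a median of 0.11 against 1.15 on I/R 1 and 1.09 on I/R 2. A probe of class 1 could not lie 2-fold below the N mean on I/R 2 and be included.

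Other choices of probes avoided or eased this limit. When the probes were chosen on the N arrays alone, the medians of the 5 classes were 0.10, -0.02, -0.01, -0.02 and -0.16, with the lowest again in the brightest class. That choice also moves the class limits, and many values on I/R 1 and I/R 2 were not well above background and give only a bound. Among the 3288 probes with an N mean of at least 6.07, which is 2-fold above the dimmest value on I/R 2, 201 were up-regulated (6.11%) and 389 down-regulated (11.8%), with a median of 0.0037. The limit of 6.07 was set after the values were seen. These probes are part of the 5273 and passed the same filter, so their decreases on I/R 2 stayed bounded, most tightly near 6.07. In that range the decreases outnumbered the increases, the reverse of the counts over all 5273 probes. Of the 390 down-regulated probes all but 1 were in that range, and of the 524 up-regulated probes 201 were.

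The bright end also depended on the scale. With scaling to the 75th percentile the median of class 5 was 0.24, while the median over all probes was 0.32 in place of 0.22, so class 5 lay below the median of all probes on both scales. With classes by the mean of all 6 arrays it was 0.10. The medians from class 1 to class 5 were then 0.529, 0.214, 0.135, 0.067 and 0.099, so the lowest was in class 4. With classes by N 3 alone and the fold taken against the other N arrays, class 5 was the lowest at -0.058.

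In classes 2 to 4 the largest called increases without overlap were smaller than that of class 1 (3.56). The largest called decreases without overlap were smaller than that of class 5 (-6.07). In class 2 the largest called increase, ASCRP4010020, was at 5.19, 5.42 and 6.45 in N and at 8.34, 8.15 and 7.61 in I/R (log2 difference 2.35), and the largest called decrease, ASCRP4013566, was at 6.58, 5.69 and 6.12 in N and at 5.29, 5.31 and 4.72 in I/R (-1.03). In class 3 ASCRP4008899 was at 7.05, 6.85 and 6.51 in N and at 9.51, 9.07 and 8.21 in I/R (2.12), and ASCRP4001387 was at 6.86, 6.20 and 7.47 in N and at 5.67, 5.34 and 4.05 in I/R (-1.83). In class 4 ASCRP4003340 was at 7.75, 7.28 and 7.37 in N and at 8.60, 9.07 and 11.48 in I/R (2.25), and ASCRP4011368 was at 7.29, 7.32 and 8.31 in N and at 5.66, 5.28 and 2.83 in I/R (-3.05). With normexp the 6 log2 differences were 1.46 (ASCRP4010020), -0.40 (ASCRP4013566), 1.70 (ASCRP4008899), -0.85 (ASCRP4001387), 1.94 (ASCRP4003340) and -1.47 (ASCRP4011368). In the processed signal none of the 6 overlapped between the groups. I/R 3 was the lowest I/R array in 5 of them and the highest in ASCRP4003340. On I/R 2 the decreases ASCRP4013566, ASCRP4001387 and ASCRP4011368 lay near the dimmest included value there (5.07), so the filter bounded their size. Only ASCRP4010020 and ASCRP4008899 passed the adjusted threshold (limma adjusted p = 0.0316 and 0.0366), and both lost it without any 1 of N 1, N 2, I/R 1 and I/R 2, the latter probe also without N 3.

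The 5 brightest circRNA probes in N were at or near the top of every array. ASCRP4006710 was at 17.75 on the 3 N arrays and at 17.15, 17.14 and 17.75 on the I/R arrays. ASCRP4012684 was at 17.15, 17.15 and 16.80 in N and at 15.38, 15.76 and 16.39 in I/R, a log2 difference of -1.19 that passed the unadjusted threshold (limma adjusted p = 0.104). The other 3, ASCRP4006342, ASCRP4004008 and ASCRP4013042, had log2 differences of 0.08, 0.56 and 0.41 and passed no threshold. At this end a value is the rank of a probe on its array, and equal values on several arrays mean equal ranks.

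The 3 I/R livers were then compared probe by probe over the 5263 probes with all 6 values. All 3 lay on the same side of the N mean in 2346 probes (44.6%), above it in 1468 (27.9%) and below it in 878 (16.7%). I/R 1 and I/R 2 lay on the same side in 4481 probes (85.1%), I/R 1 and I/R 3 in 2516 (47.8%) and I/R 2 and I/R 3 in 2958 (56.2%). In 2135 probes (40.6%) I/R 1 and I/R 2 lay on one side and I/R 3 on the other. The 3 differences share the same N mean. When each I/R array was set against an N array of its own, in the 6 possible ways, the 3 differences had the same sign in 2066 to 2327 probes (39.3% to 44.2%).

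I/R 3 was as far from the other I/R arrays as the groups were from each other. I/R 1 and I/R 2 differed by at least 2-fold in 6.21% of the probes, within the range of the N pairs. I/R 1 and I/R 3 differed by as much in 57.9% and I/R 2 and I/R 3 in 46.3%, more than any I/R array from any N array. Pearson's r across probes, which are not independent, was 0.95 between I/R 1 and I/R 2, 0.69 between I/R 1 and I/R 3, 0.80 between I/R 2 and I/R 3, 0.94 to 0.98 among the N arrays and 0.76 to 0.83 between I/R and N arrays. The SD over the I/R arrays was larger than over the N arrays in 4452 probes (84.6%), with medians of 0.66 and 0.24. I/R 1 and I/R 2 are the 2 arrays with few probes above background, each in its own scan and both read with the same grid file, and the part of signal, scan, grid file and liver in their likeness was not tested.

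At 2-fold the agreement was narrower. All 3 I/R arrays lay at least 2-fold above the N mean in 155 probes (2.95%) and at least 2-fold below it in 214 (4.07%). No I/R array differed 2-fold from the N mean in 1887 probes (35.9%). I/R 1 and I/R 2 differed 2-fold in the same direction in 1098 probes, of which I/R 3 did too in 369, lay within 2-fold in 689 and lay 2-fold the other way in 40. I/R 3 shared 214 of the 371 decreases and 155 of the 727 increases of these 2 arrays, whose decreases the filter on dim probes limits. I/R 3 differed 2-fold in 2089 probes, and in 1254 of these neither other I/R array did.

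**Figure D5:**
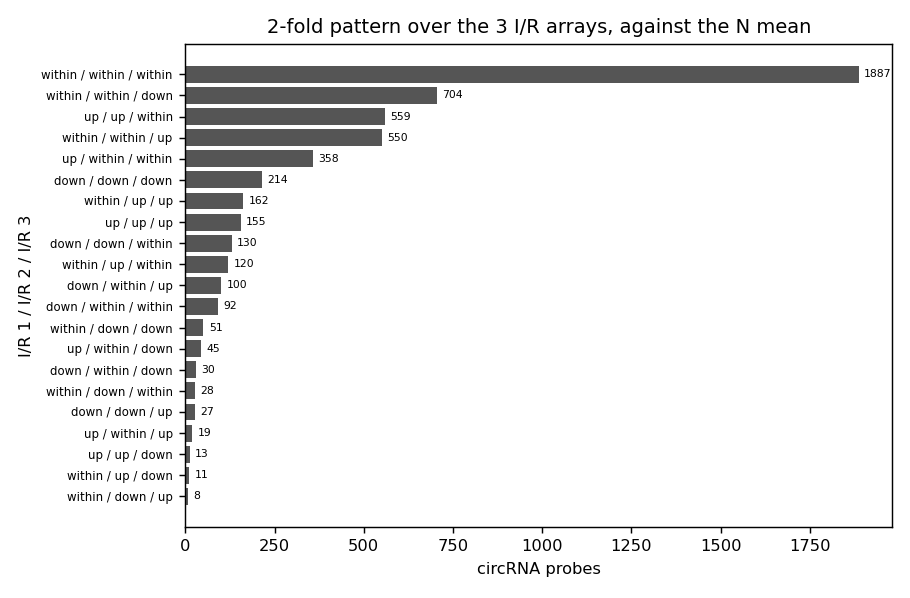
Number of circRNA probes with each pattern of change over the 3 I/R arrays, in the order I/R 1, I/R 2 and I/R 3, where up and down mean at least 2-fold from the mean of the 3 N arrays. Changes on I/R 3 alone (704 down, 550 up) and increases on I/R 1 and I/R 2 with I/R 3 within 2-fold (559) each outnumber the changes shared by all 3 (214 down, 155 up).

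Among the 524 probes called up-regulated, all 3 I/R arrays lay above the N mean in 517, did not overlap with N in 464 and were all at least 2-fold above in 155. Among the 390 called down-regulated the numbers were 387, 352 and 214. Calls made on these same values fix part of that agreement. At 2-fold, a larger part of the called decreases than of the called increases was shared by all 3 livers, which was not tested. The filter bears on this comparison. Of the called increases, 186 were among the 687 probes that could be included only by lying above N on I/R 2. The median of those 687 on I/R 3 was 0.11. The counts with all 3 arrays at least 2-fold on one side were 66, 23, 15, 22 and 29 upward and 0, 0, 14, 58 and 142 downward from class 1 to class 5. The downward 0 of class 1 was fixed by the filter. In class 2 only probes with an N mean of at least 6.07 could count downward.

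The probes in which I/R 3 stood farthest from both other I/R arrays moved in either direction. ASCRP4012250 was at 8.65, 8.47 and 8.24 in N and at 5.17, 5.64 and 9.99 in I/R. ASCRP4004507 was at 9.30, 9.59 and 9.38 in N and at 5.79, 6.09 and 9.86 in I/R. ASCRP4002509 was at 8.55, 8.41 and 8.09 in N and at 5.51, 5.60 and 9.35 in I/R. In these 3, I/R 1 and I/R 2 lay far below all N arrays and I/R 3 above them. ASCRP4007684 was at 10.11, 10.26 and 10.84 in N and at 11.60, 11.38 and 4.88 in I/R. ASCRP4007535 was at 11.17, 10.94 and 11.69 in N and at 12.52, 12.09 and 9.05 in I/R. ASCRP4004419 was at 4.28, 4.50 and 4.86 in N and at 5.61, 5.50 and 2.59 in I/R. In these the order was turned, with I/R 1 and I/R 2 above and I/R 3 below all N arrays. For ASCRP4004419, with a mean of 4.55 in N, the place above N on I/R 2 was fixed by its inclusion. ASCRP4004507 passed the unadjusted threshold as a decrease. None of the 6 passed the adjusted threshold, with limma adjusted p between 0.211 and 0.992.

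The called probes with the closest I/R values showed how alike the 3 livers could be. ASCRP4006838 was at 9.89, 9.77 and 9.77 in N and at 10.85, 10.86 and 10.81 in I/R, a log2 difference of 1.03. ASCRP4009973 was at 4.21, 4.73 and 4.40 in N and at 5.68, 5.63 and 5.72 in I/R, a log2 difference of 1.23. ASCRP4012095 was at 5.63, 5.38 and 5.42 in N and at 7.05, 7.0 and 6.95 in I/R, a log2 difference of 1.52. In these 3 the SD over the I/R arrays was between 0.02 and 0.05 and every I/R value lay above every N value. The mean of ASCRP4009973 in N, 4.45, was also below the dimmest included value on I/R 2.

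The closest decreases were as tight. ASCRP4004423 was at 6.91, 7.13 and 6.26 in N and at 5.26 on all 3 I/R arrays, a log2 difference of -1.51. On I/R 2 that value was near the dimmest included one (5.07), so the filter bounded the decrease there. ASCRP4007774 was at 7.96, 8.07 and 8.35 in N and at 6.93, 6.95 and 6.93 in I/R, a log2 difference of -1.19. ASCRP4009363 was at 8.01, 8.21 and 7.81 in N and at 6.93, 6.96 and 6.90 in I/R, a log2 difference of -1.08. Of the 6 probes with the closest I/R values only ASCRP4012095 passed the adjusted threshold (limma adjusted p = 0.0379), which it lost without any 1 of N 1, N 2, N 3, I/R 1 and I/R 2, and the other 5 had values between 0.0561 and 0.0900. With normexp none of the 6 reached 2-fold, with log2 differences of 0.95 (ASCRP4006838), 0.44 (ASCRP4009973), 0.77 (ASCRP4012095), -0.70 (ASCRP4004423), -0.84 (ASCRP4007774) and -0.80 (ASCRP4009363). They were picked for their closeness in I/R, so that closeness is a description and carries no test.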

How the data were processed

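The authors deposited the Agilent Feature Extraction (version 11.0.1.1) output of each 1-colour array, which holds per spot a processed intensity (signal after that software's background correction), the median raw and background intensity and flags for dim and outlier spots. The deposited values were not normalized between arrays. Groups came from the sample labels. Log2 of the processed intensity of the 15176 non-control spots was quantile normalized over the 6 arrays, with outlier-flagged spots set to missing (10 probes lacked a value), in R 4.3.3 with limma 3.58.1. I/R and N were fitted with lmFit and eBayes, and p-values were adjusted by the Benjamini-Hochberg method over 5273 probes. The study's methods state quantile normalization, limma, a fold change of 2.0 and a p-value of 0.05, and no filter on dim probes. With 3 livers in each group, the precision is set by that number. No spot was saturated.

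Probes were named by rule. These were the 6 largest increases and decreases with an adjusted p below 0.05 and no overlap, the largest called change of each direction and brightness class, the 5 brightest in N, and for each direction the 3 probes with I/R 3 farthest from the other I/R arrays and the 3 called probes with the smallest SD in I/R. The probes and rules were chosen with earlier results of these data known. Alternatives covered scaling, background correction (normexp offset 50), filter, test, array weights, replicate and scan blocks, 9 arrays fitted together, outlier spots kept, fold threshold, class definition and each array left out. The IPO arrays served only the fit of 9 arrays and 1 definition of the classes.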

Additional observations from a re-analysis of the deposited data

How the results depend on the processing

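The unadjusted counts (524 up, 390 down), the 143 adjusted calls, the SD of 0.87, the 2346 probes with all I/R arrays on one side, the 1592 without overlap and the class medians of 0.70 (dimmest) and -0.19 (brightest) moved as follows, and the cause was not tested. The median of the brightest class turned to 0.24 with scaling to the 75th percentile and to 0.10 with classes by the mean of 6 arrays. Normexp gave 141 up, 222 down and an SD of 0.60, and the raw signal 224 up and an SD of 0.70. Other filters changed the number of probes tested, so their counts are not like for like with those over 5273 probes. Without a filter (14236 probes) the values were 1218 up, 1269 down, 78 adjusted, SD 1.02, 5890 on one side and 3824 without overlap. With the 12458 probes above background on at least 3 of 6 arrays they were 815, 1279, SD 1.00, 5129, 3353 and 0.18 in the dimmest class. With the 11892 probes above background on all N arrays there were 1272 down, an overall median of -0.016 in place of 0.22, SD 1.00, 4918, 3242 and 0.10. Within the shared scan the I/R arm is I/R 3 alone, with a spread taken from the 3 N arrays, so its p-values speak for that liver only. There were 948 up, 973 down and 1648 adjusted, with an overall median of -0.078, SD 1.15, 4503 without overlap, and class medians of 0.083 and -0.45. Array weights (0.09 for I/R 3) gave 1031 up and 1466 adjusted, 9 arrays 560 adjusted and the Student's t-test on these values 54. At 4-fold there were 27 up, 117 down and 88 adjusted. A pair of alternatives were chosen after seeing the data. Among the 3288 probes with an N mean at least 2-fold above the dimmest on I/R 2, 201 were up. Of the 3288, 1444 lay on one side and 969 did not overlap, with 0.16 in the dimmest class. Classes over all circRNA probes left 1 probe, at 2.001, in the dimmest. Leaving out 1 array gave 374 to 989 up, 1 to 1395 adjusted and an SD of 0.86 to 0.99. It gave 2345 to 4479 on one side and 1734 to 3432 without overlap. Each upper end was without I/R 3. With an I/R array left out fewer arrays had to agree, so the counts on one side and without overlap were easier to reach. The replicate block gave 55 adjusted calls. The replicate numbers do not pair the mice, with correlations of the same-numbered deviations of -0.10, -0.19 and -0.23. No called probe was called in the opposite direction in the alternatives whose calls were compared, and each of the 15 named probes that passed the adjusted threshold lost it in at least 1.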
